A study of Mus musculus with 22 samples.

Results

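Heavy polysomal mRNA of mouse liver was compared between 2 h after injection of tunicamycin (Tm) and 0 h. Of the 39897 loci in the deposited table, 9427 (23.6%) were taken: those with a completed estimate in both groups and a mean of the 2 group means of at least 50 scaled fragments. Each locus is a set of transcripts that overlap, numbered by Cufflinks, and scaled fragments are sequenced fragments divided by the size factor of their library. A further 30453 loci had an estimate in both groups but lay below this level, 18407 of them at 0 in both, and 17 had no completed estimate. These 9427 loci held 97.9% of all scaled fragments at 0 h and 97.7% at 2 h. At the lower edge, the last locus taken had means of 53.6 and 46.5 at 0 h and 2 h, and the first one left out had 55.5 and 44.5.

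Tm keeps N-linked glycans from being attached to proteins in the ER, and the misfolded proteins that build up set off the unfolded protein response. One arm of this response is the kinase PERK, which phosphorylates the initiation factor eIF2α and thereby slows the start of translation on most mRNAs, while a few mRNAs with upstream open reading frames, such as that of ATF4, are translated more. An mRNA read by many ribosomes at a time sediments in the heavy part of a sucrose gradient, so its place there is used as a measure of its translation. Sequencing the heavy fractions gives the make-up of the translated pool, and liver devotes much of that pool to mRNAs of secreted plasma proteins.

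The mice were C57BL/6 males of 5 weeks. Those of the 2 h group received 0.1 mg/kg Tm into the peritoneum at 8 am and were culled at 10 am, and those of a 4 h group, used here beside them, at 12 noon. The 0 h mice were culled at 9 am. The methods call them controls and give no injection for them, whereas the labels list tunicamycin as their treatment and the outline of the experiment counts their time among those after injection, so no dose is assigned to them here. Time after Tm and time of day changed together and cannot be told apart. The heavy polysomal RNA came from gradient fractions with more than 3 ribosomes, and 0.5 µg of it went into each library. The values are therefore levels relative to the sequenced pool, and a change in the amount of polysomes as a whole does not show in them. In bulk liver, fewer cells of a type and less RNA per cell cannot be told apart.

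By the labels, heavy polysomal RNA has 2 libraries at each of 0 h and 2 h, while the table holds 3 read groups for each and does not say which are the listed libraries. Only the authors' means of these 2 groups were used, so the polysomal comparison between 2 h and 0 h has no replicate spread and no p-value. As single libraries, 3 of total RNA at each of 0 h, 2 h and 4 h and 3 of heavy polysomal RNA at 4 h were used. Counted fragments ranged from 10556153 to 17283500 in total RNA at 0 h, from 9788578 to 10909529 at 2 h and from 11636552 to 12377392 at 4 h. They ranged from 12843966 to 13726378 in heavy polysomal RNA at 4 h. The labels do not say which total and polysomal libraries share a mouse.

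The files pair the locus identifiers with no gene names, positions or sequences, so loci are described by their level, relative length and behaviour, and markers of hepatocytes or of other liver cells could not be checked. Some loci were skipped in single libraries because they held too much data, and such loci are listed at 0. This left 9408 of the 9427 loci complete in the 12 single libraries, and comparisons that involve total RNA or 4 h use these. A group can carry a completed status although a library in it was skipped. This was so for 12 of the 9427 loci in the polysomal 4 h group, and it cannot be seen for the polysomal groups at 0 h and 2 h.

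The heavy polysomal pool was rearranged in both directions between 0 h and 2 h, and by more than total mRNA was. The median log2 change of the 9427 loci was 0.05, on the scale of log2(mean + 1), and 54.3% of them were above 0. The SD of the changes across loci was 0.509, with quartiles at -0.27 and 0.38 and a range from -2.57 to 6.60. In total mRNA the SD across the 9408 complete loci was 0.282.

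By the authors' means, 164 loci (1.74% of those compared) were at least 2-fold higher in heavy polysomes at 2 h and 249 (2.64%) were at least 2-fold lower, together 4.38%. At 1.5-fold the numbers were 1180 higher (12.5%) and 1052 lower (11.2%), and at 4-fold they were 13 and 2. In total mRNA, 61 of the complete loci were at least 2-fold higher at 2 h (0.648%) and 24 were lower (0.255%). At 2-fold the lower loci were thus the more numerous in polysomes and the higher ones in total mRNA, whereas at 1.5-fold and 4-fold the higher loci were the more numerous in polysomes as well. Just inside the 2-fold limit stood a locus with means of 371 at 0 h and 744 at 2 h and one with 26162 and 13080, and just outside stood loci with 70.5 and 142 and with 5091 and 2546.

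**Figure D1:**
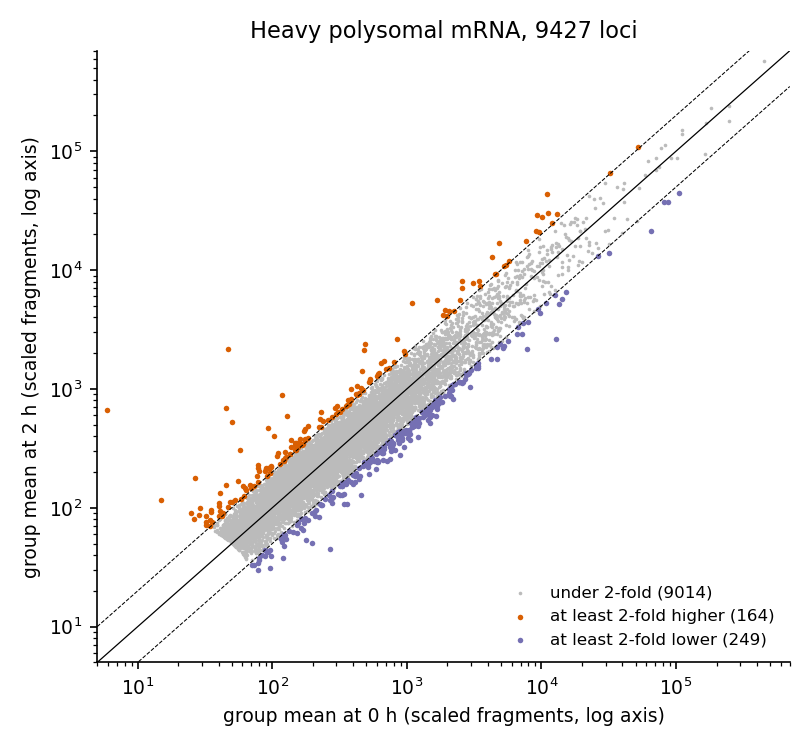
Authors' mean of heavy polysomal mRNA at 0 h (x axis) and at 2 h after Tm (y axis), in scaled fragments on log axes, for each of the 9427 loci; the solid line marks no change and the dashed lines a 2-fold change. The 164 loci at least 2-fold higher and the 249 at least 2-fold lower spread over the whole range of levels, and the points farthest from the line are higher at 2 h.

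**Figure D2:**
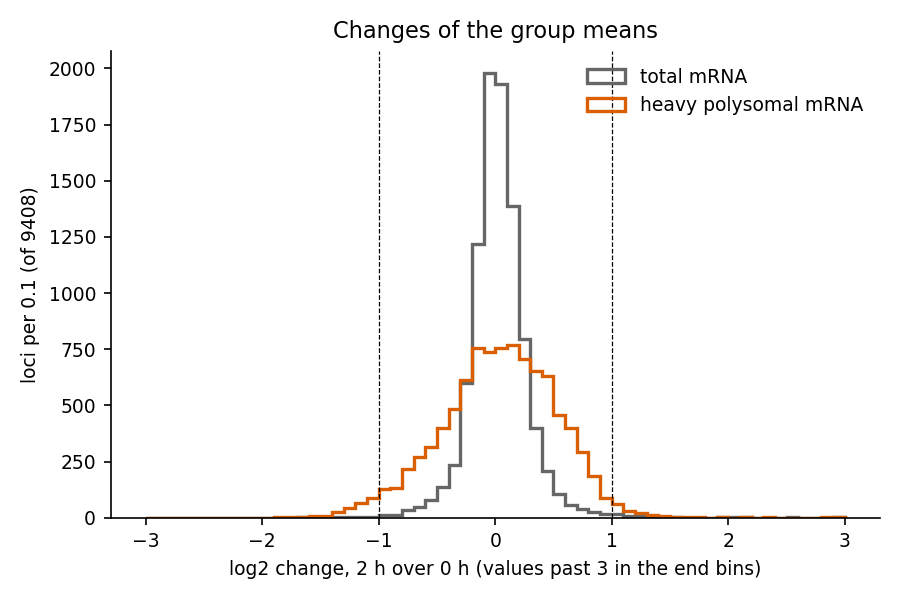
Number of loci in steps of 0.1 of the log2 change from 0 h to 2 h, for heavy polysomal mRNA and for total mRNA over the same 9408 loci; dashed lines mark a 2-fold change. The polysomal changes are the more widely spread, with an SD of 0.508 against 0.282.

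Single libraries of 1 group gave a measure of how far such changes lie from ordinary scatter. Between pairs of the 3 polysomal 4 h libraries the SD of the log2 differences was 0.312 to 0.401, and 86 to 166 loci (0.914% to 1.76%) differed at least 2-fold. Between pairs of total libraries at 2 h it was 0.320 to 0.390. These pairs compare single libraries, whereas each polysomal group mean averages 3 read groups. The authors' files also give a modelled variance for each group mean. The SD from it was 17.0% of the mean for the median locus in each polysomal group. In the polysomal 4 h group the modelled value was 16.9%, and the SD observed between the 3 libraries was 12.4%. The sources used here do not say whether the modelled value is that of a single library or of the mean of 3. With this modelled error, the change of the median locus had an SD of 0.35 on the log2 scale. A change of more than 2 times the modelled SD of the same locus was found in 1384 loci (14.7%), of which 688 were higher and 696 lower at 2 h.

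The change in heavy polysomes differed with the level of a locus. Loci with a mean from 50 to 100 scaled fragments had an SD of changes of 0.447, and the 281 loci at 5000 or more had 0.685. In those 281 loci, 22 were at least 2-fold higher and 19 lower. Among the 1230 loci from 1000 to 5000, 20 were higher and 64 lower, while among the 1541 loci from 50 to 100 the numbers were 27 and 24. The lower loci were thus more numerous than the higher ones at middle to high levels, from 200 to 5000, and the numbers were close to equal at either end.

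Short loci were lower and long loci higher in heavy polysomes at 2 h. The relative length of a locus was estimated from its share of fragments over its FPKM in the 9 total libraries, with the median locus at 1, which was possible for 9422 loci. It includes the authors' corrections for sequence bias and multiple matches, so very small values are not lengths in bases. Ordered by length and cut into 10 equal groups (deciles), the loci changed as follows. In the shortest decile, 942 loci with a relative length up to 0.345, the median log2 change was -0.63 and 12.5% of loci were above 0. The median rose from decile to decile, with 1 exception at the seventh, to 0.29 in the longest decile. In total mRNA the same loci showed no such gradient, with medians of -0.04 in the shortest and -0.01 in the longest decile.

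The 2-fold lower loci were largely short ones. Of these 249 loci, 193 (77.5%) were in the shortest decile and 218 in the 2 shortest, and 13 were longer than the median locus. Their median relative length was 0.213. The 164 higher loci had a median relative length of 1.09 and were spread over the deciles, with 10 in the shortest, 24 in the sixth and 13 in the longest. The loci were then cut into 50 equal groups by length, and the median change of each group was removed. After this, 47 loci were at least 2-fold lower and 160 were higher. Of these 160, 32.5% were in the shortest decile and the median relative length was 0.570, so that they differ from the 164 in length. The gradient was present at every level. Among loci of 50 to 200 scaled fragments, the shortest decile had a median change of -0.39 and the longest 0.30. From 200 to 1000 the medians were -0.72 and 0.28, and at 1000 or more they were -0.90 and 0.25. In this last class 183 of the 197 short loci (92.9%) were below 0.

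**Figure D3:**
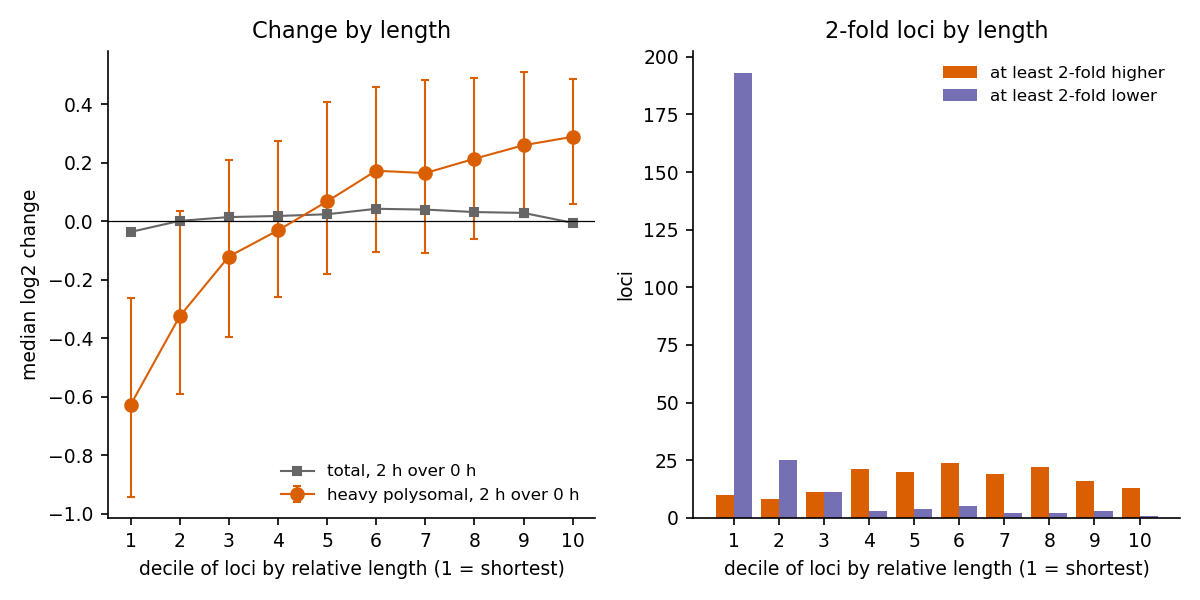
Left, median log2 change from 0 h to 2 h by decile of relative length (1 is the shortest), for heavy polysomal mRNA with bars for the quartiles across loci and for total mRNA; right, number of loci at least 2-fold higher or lower in heavy polysomes per decile. The polysomal median climbs from -0.63 to 0.29 while that of total mRNA stays between -0.04 and 0.04, and 193 of the 249 lower loci fall in the first decile.

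The difference between the medians of the outer deciles was set beside that between single libraries. Over the complete loci, the shortest decile lay 0.919 below the longest in the polysomal change from 0 h to 2 h and 0.0311 below it in total mRNA. Pairs of polysomal 4 h libraries differed by 0.138 to 0.402 in the same quantity, and pairs of total 2 h libraries by up to 0.483. A dependence on length thus also appeared between libraries of 1 group, at less than 0.5. The files hold no measure of RNA integrity, and its part in the gradient was not tested.

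Seen as a ratio to total mRNA at the same time, the gradient was steepest at 0 h. The median log2 ratio of heavy polysomal over total mRNA, in scaled fragments, fell from 0.47 in the shortest decile to -0.46 in the longest at 0 h. The 2 h medians of these outer groups were -0.10 and -0.17, and those of 4 h were -0.08 and -0.22. The shortest decile thus dropped below its neighbours, while from the third decile on the ratio still fell with length, from 0.12 to -0.17 at 2 h and from 0.19 to -0.22 at 4 h. From 2 h to 4 h the polysomal medians moved by -0.04 in the shortest decile and by -0.07 in the longest. The polysomal 0 h mean enters the change at 2 h and the change at 4 h alike. It does not enter the change from 2 h to 4 h, where the shortest decile lay 0.0283 above the longest. A feature shared by the 2 h and 4 h mice and a feature of the 0 h polysomal group cannot be told apart here.

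The same shift showed in shares of the sequenced pool. The shortest decile of loci held 21.2% of the fragments of the complete loci in heavy polysomes at 0 h and 13.8% at 2 h. In the 3 polysomal libraries at 4 h it held 11.7%, 12.5% and 14.7%. In total RNA its share was 13.6%, 14.1% and 14.7% in the libraries at 0 h and 13.3%, 13.2% and 16.0% at 2 h. At 4 h it was 12.2%, 12.5% and 12.9% in total RNA, below each library at 0 h. The total libraries of 0 h and 2 h overlapped, and each of them was below the polysomal mean at 0 h. Of the whole heavy polysomal pool, 15.5% moved between loci from 0 h to 2 h, taken as the summed gains in share. For the complete loci this was 16.3%, against 7.19% in total RNA and against 6.70% to 10.96% between pairs of polysomal 4 h libraries.

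A small number of loci carried a large part of the pool at both times. The 10 most abundant loci held 17.9% of the heavy polysomal fragments at 0 h and 18.7% at 2 h, and the 100 most abundant held 42.6% and 43.9%. Of the 100 most abundant at 0 h, 80 were among the 100 most abundant at 2 h, where total mRNA shared 94. The 10 largest gains in share summed to 3.80 percentage points and the 10 largest losses to 4.00. The 164 higher loci together went from 2.54% to 5.92% of the pool, and the 249 lower loci from 7.36% to 3.08%. Both sets were chosen by this same change, so the direction of these shifts follows from the choice.

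The largest single gain was at the most abundant locus of both groups, which held 4.22% of the pool at 0 h and 5.24% at 2 h. Its log2 change of 0.35 was smaller than its modelled SD of 1.27. This locus was skipped in 6 of the 12 single libraries, all 3 polysomal 4 h libraries among them, so its value could not be followed further. The next largest gain was at a locus that went from 0.489% to 0.994%, that is from rank 24 to rank 10, with a log2 change of 1.06 and a modelled SD of 0.59. In total RNA it held 0.846%, 1.04% and 0.896% of the fragments at 0 h and 1.34%, 1.01% and 1.21% at 2 h. The most abundant locus was skipped in the 0 h library with 1.04%, so that share is of a smaller sum. In scaled fragments the locus with the next largest gain held at most 107795 in the 0 h libraries and at least 108329 in those of 2 h. It did not pass the test of total mRNA at 2 h described below (log2 fold change 0.44, adjusted p = 0.262 by edgeR). In the polysomal 4 h libraries it held 0.581%, 0.487% and 0.482%, close to its share at 0 h.

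The largest losses were at 2 short loci, both in the shortest decile. The first went from 1.55% of the heavy polysomal pool at 0 h to 0.863% at 2 h, and its share in the 3 polysomal 4 h libraries was 0.824%, 0.970% and 1.33%. Its log2 change of -0.80 was about as large as its modelled SD of 0.79. The second went from 2.30% to 1.62%, with 1.47%, 1.24% and 2.24% at 4 h. The shares in the polysomal 4 h libraries are of sums that lack the most abundant locus, which was skipped there. For this second locus the highest 4 h library held 223196 scaled fragments, against a mean of 245639 at 0 h. The modelled SD of its log2 change of -0.47 was 0.91, so that this change was smaller than its modelled error.

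Loci that were sparsely loaded at 4 h tended to be higher at 2 h. Loading was taken as the log2 ratio of polysomal over total mRNA in the 4 h means, which share no library with the change from 0 h to 2 h. The median change was 0.14 in the decile of loci with the lowest loading and 0.23 in the next, and it was -0.17 in the decile with the highest. The decile with the lowest loading also held 83 of the 2-fold lower loci and 29 of the higher ones, the former more than in any other decile. Within the longest 1 of 3 length classes, the lowest decile by loading had a median change of 0.47 and the highest 0.02. Within the shortest class the medians were -0.48 and -0.28, in the opposite order. Length still differed within these classes. The median relative lengths at the lowest and highest loading were 2.14 and 1.74 in the longest class and 0.231 and 0.460 in the shortest.

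Most of the polysomal changes were not matched by a change of like size in total mRNA. Of the 249 lower loci, 219 (88.0%) changed by less than 1.5-fold in total mRNA at 2 h, with a median log2 change of -0.09 there against -1.15 in polysomes. A further 15 were at least 2-fold lower in total mRNA as well, 14 were 1.5- to 2-fold lower, and 1 was at least 1.5-fold higher. Of the 163 complete higher loci, 87 (53.4%) changed by less than 1.5-fold in total mRNA, 34 were 1.5- to 2-fold higher and 42 were at least 2-fold higher. The median log2 change in total mRNA was 0.52 over these 163 loci and 0.29 over the 87, and with a limit of 1.2-fold the 87 became 38. None was at least 1.5-fold lower in total mRNA. Among all complete loci, 96.3% changed by less than 1.5-fold.

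The loci of these classes differed in length. Those at least 2-fold higher in both had a median relative length of 0.743, and those under 1.5-fold in total mRNA had 1.12. The 219 lower loci with a total change under 1.5-fold had a median relative length of 0.202 and a median level of 665 scaled fragments, while the 15 that were also 2-fold lower in total mRNA had 0.976 and 154.

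**Figure D4:**
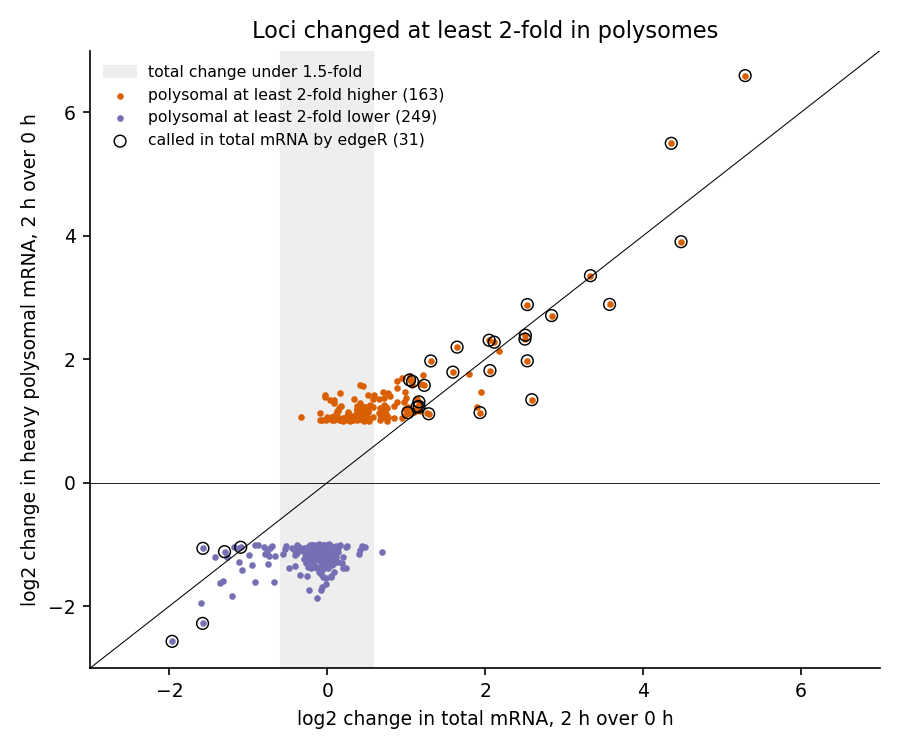
Log2 change from 0 h to 2 h in total mRNA (x axis) and in heavy polysomal mRNA (y axis) for the 412 complete loci with a polysomal change of at least 2-fold; the shaded band marks a total change under 1.5-fold, the diagonal an equal change, and circles the 31 loci called in total mRNA by edgeR. Most of the lower loci lie within the band, and the 2 loci with the largest polysomal rises lie above the diagonal.

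Changes in total mRNA could be tested, since single libraries were at hand. With edgeR's quasi-likelihood test over 12606 loci, 50 loci (0.397%) were called at 2 h, with a change of at least 2-fold and a Benjamini-Hochberg adjusted p below 0.05. All 412 complete loci with a 2-fold polysomal change passed the filter on low counts. Among the 163 higher in polysomes, 26 were called in total mRNA at 2 h, all of them higher (background 0.317%). Among the 249 lower in polysomes, 5 were called, all of them lower (background 0.0793%). These backgrounds rest on 40 loci called higher and 10 called lower, and on single libraries. With DESeq2 63 were called higher and 26 lower, and with edgeR over every locus with at least 1 count 83 and 51. Without the 2 h library of 10597584 counted fragments, 21 were called higher, and without the 0 h library of 11282111 or the 2 h library of 10909529, 6 were called lower. With each total library at 0 h and 2 h left out in turn, 21 to 35 of the 412 loci were called, against 31 with all libraries.

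Read from the side of total mRNA, all 43 complete loci called at 2 h had their polysomal change on the same side. The 35 loci called higher had a median polysomal change of 1.64, from 0.09 to 6.60, and 26 of them were at least 2-fold higher. In 16 of the 35 the polysomal change was the larger one. The 8 loci called lower had a median polysomal change of -1.06, and 5 of them were at least 2-fold lower. The median difference between the polysomal and the total log2 change was -0.13 in the former and 0.35 in the latter.

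At 4 h, 1078 loci (8.55%) were called in total mRNA by the same edgeR fit, 640 higher (5.08%) and 438 lower (3.47%). With upper-quartile scaling, which moved the median of all loci to -0.15, the split was 499 higher and 619 lower. The test at 4 h shares the total 0 h libraries with the test at 2 h but no library with the polysomal change. The methods give 3 animals per time point, so the total and polysomal libraries at 0 h can come from the same mice. Among the 163 loci that were higher in polysomes at 2 h, 74 were called in total mRNA at 4 h, 65 higher and 9 lower. Among the 249 that were lower, 14 were called, 2 higher and 12 lower. Of the 607 loci called higher in total mRNA at 4 h and not at 2 h, 378 were among the complete loci compared in polysomes. These had a median polysomal change of 0.47 at 2 h, when their median change in total mRNA was 0.35. Of the 430 called lower at 4 h and not at 2 h, 250 were among the complete loci. Their median polysomal change at 2 h was -0.03, beside a median change of -0.16 in total mRNA, and 130 of them were below 0 in polysomes.

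Locus XLOC_032013 had the largest polysomal rise among complete loci at a level of 200 or more. Its heavy polysomal mean was 5.86 scaled fragments at 0 h (modelled SD 2.72) and 664 at 2 h (modelled SD 117), a log2 change of 6.60 with a modelled SD of 0.63. In total RNA its libraries held 11.5, 2.40 and 26.2 scaled fragments at 0 h and 627, 743 and 318 at 2 h, so the groups did not overlap. The total rise passed the test, with a log2 fold change of 5.58 (standard error 0.51, adjusted p = 0.000362 by edgeR). The log2 fold change was 4.90 without the 0 h library that held 2.40 and 6.51 without the one that held 26.2, and it passed the test in both cases. The polysomal 4 h libraries held 2460, 4137 and 2466. Its value at 0 h rests on few fragments, so the size of the change depends on the pseudocount, and with a pseudocount of 8 the log2 change in polysomes was 5.60.

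Locus XLOC_002882 came next, and it too passed both limits only through its 2 h value. Its polysomal mean was 46.8 at 0 h (modelled SD 27.5) and 2161 at 2 h (modelled SD 428), a log2 change of 5.50. Total RNA held 59.2, 58.8 and 124 scaled fragments at 0 h and 1873, 1665 and 1481 at 2 h. Total mRNA rose by 4.40 on the log2 scale (standard error 0.25), with an adjusted p of 9.64e-06 by edgeR. At both loci the total and polysomal values were higher again at 4 h, with 8601, 11441 and 4949 in the polysomal libraries of XLOC_002882.

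Locus XLOC_032529 had the largest fall at this level. Its polysomal mean was 12902 at 0 h (modelled SD 2676) and 2655 at 2 h (modelled SD 448), a log2 change of -2.28 with a modelled SD of 0.39. In total RNA the libraries held 5150, 9770 and 5378 scaled fragments at 0 h and 3223, 1516 and 2052 at 2 h. In total mRNA it fell by 1.59 on the log2 scale (standard error 0.28), with an adjusted p of 0.0234 by edgeR. This call rested on single libraries, since the adjusted p from edgeR was 0.0536 without the 0 h library that held 9770 (log2 fold change -1.23) and 0.0679 without the 2 h library that held 2052 (log2 fold change -1.52). At 4 h the polysomal libraries held 5015, 6815 and 13012, a range that reached the 0 h mean.

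Locus XLOC_031851, with a relative length of 0.0732, was the second largest fall and its change in total mRNA did not pass the test. Its polysomal mean was 7875 at 0 h (modelled SD 1412) and 2155 at 2 h (modelled SD 357), a log2 change of -1.87 with a modelled SD of 0.35. With the median change of its length group, 1 of 50, removed it was -1.04. Total RNA held 4558, 4558 and 4862 scaled fragments at 0 h and 2948, 5393 and 4410 at 2 h, and these groups overlapped (log2 fold change -0.15, adjusted p = 0.788 by edgeR). At 4 h total RNA held 20468, 19691 and 20573, a log2 fold change of 2.12 over 0 h (adjusted p = 4.98e-06 by edgeR). The polysomal libraries at 4 h held 11332, 10794 and 7794, and their mean was 0.34 above that at 0 h on the log2 scale. Its polysomal value was thus low at 2 h, and its total level high at 4 h.

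**Figure D5:**
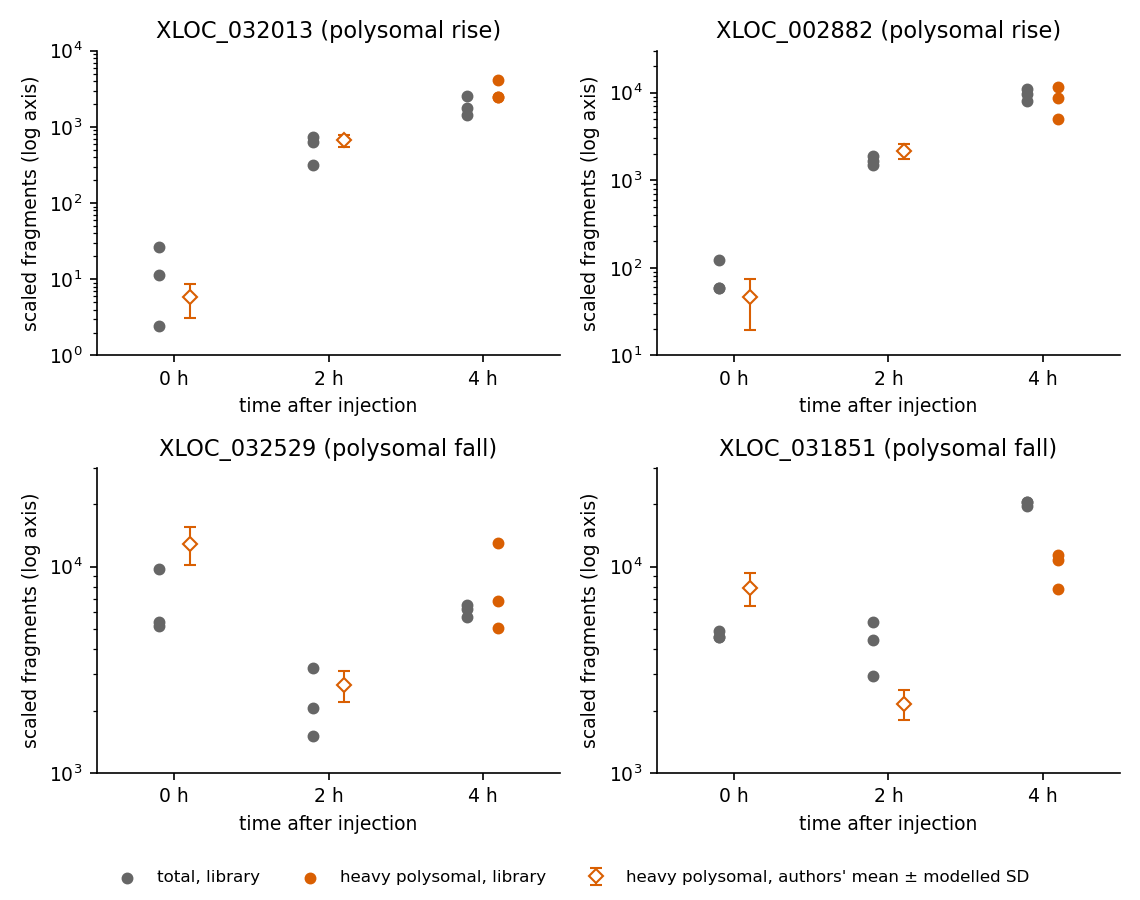
Scaled fragments on log axes by time for the loci with the 2 largest rises and the 2 largest falls in heavy polysomes: filled points are single libraries of total and of heavy polysomal RNA (slightly offset), and open diamonds the authors' polysomal means at 0 h and 2 h with the modelled SD as bars. At XLOC_032013 and XLOC_002882 both kinds of RNA climb at each time, and at XLOC_031851 the polysomal mean at 2 h lies below every total library of that time.

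The polysomal values at 4 h are given side by side with those at 2 h, with the polysomal 0 h mean shared by both changes. Over the complete loci the SD of the changes was 0.508 at 2 h and 0.696 at 4 h, and 553 loci (5.88%) were at least 2-fold higher at 4 h and 506 (5.38%) lower. The 163 higher loci had a median log2 change of 1.16 at 2 h and 1.10 at 4 h. The 249 lower loci had -1.15 and -1.16. The medians hide a wide spread in the higher loci, whose changes at 4 h had an SD of 1.75 across loci, against 0.446 in the lower ones. By the means, 28 of the 163 were at least 2-fold higher at 4 h than at 2 h and 32 were lower. Of the 249 lower loci 10 were higher and 1 was lower. Among all 9408 complete loci, 257 were at least 2-fold higher at 4 h than at 2 h and 293 were lower, together 5.85%. The 76 higher loci with a total change of at least 1.5-fold had medians of 1.35 at 2 h and 1.92 at 4 h, and the 87 without had 1.07 and 0.98.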

How the data were processed

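Single-end reads of stranded poly(A) libraries were aligned by the authors with TopHat 2.0.13 to a transcriptome index of GRCm38 and quantified with Cufflinks 2.2.1 (Cuffdiff), with corrections for fragment bias and multiple matches; strand was used. The annotation release is not given in the sources used here. The authors deposited raw fragment counts per locus and library, the same counts divided by library size factors (a signal, here called scaled fragments), FPKM values, and group means of the signal with a modelled variance. For the 4 groups with all read groups used, the group mean equalled the mean of 3 read groups at every locus compared (tolerance 0.0001). Of the 81 read groups deposited, 69 were not used, and 21 of 27 group means; these belong to groups outside the labelled samples or, for polysomal RNA at 0 h and 2 h, could not be tied to libraries. The 10 h libraries, which the labels place in a separate library pool although the methods speak of a single one, were not used here.

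Changes were log2(mean + 1) differences of the deposited means. Total RNA counts of 9 libraries were fitted with edgeR 4.0.16 in R 4.3.3 (TMM, filterByExpr, quasi-likelihood test) in 1 model with a group per time point and no pairing, each library being known by its group only, since read group numbers do not show which title they are. The methods give 3 animals per time point but neither they nor the labels tie a library to an animal, so p-values measure the spread between these libraries. Other values used Python 3.11.15, numpy 2.4.6 and pandas 2.3.3. The steps were tested on simulated data. Alternatives included DESeq2 1.42.0, other scalings, filters and folds, and each library left out. Loci were named as the 2 largest rises and falls among complete loci with a mean of at least 200; the largest changes in share are given without identifiers. The loci, lists and thresholds were chosen with earlier results of these data known.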

Additional observations from a re-analysis of the deposited data

How the results depend on the processing

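The number of loci at least 2-fold higher and lower in heavy polysomes (164 and 249) was 1180 and 1052 at 1.5-fold and 13 and 2 at 4-fold, in all 2232 and 15 against 413. With a minimum mean of 10 the higher loci numbered 256, and with 200 they numbered 105. With the trend with length removed, 160 were higher and 47 lower, in all 207, and the SD across loci was 0.438. With the median change set to 0, 131 were higher and 307 lower. The median change of the shortest decile was -0.47 with a minimum mean of 10 and -0.78 with 200. Of the higher loci, 38 changed by less than 1.2-fold in total mRNA.

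Called loci in total mRNA at 2 h numbered 89 with DESeq2, 134 over every locus with at least 1 count and 99 with no minimum fold change; at 4 h the last number was 3841. With each library left out in turn, 34 to 62 loci were called at 2 h and 970 to 1116 at 4 h. With each library left out, the change of XLOC_031851 in total mRNA at 2 h ran from -0.35 to 0.054 and that of XLOC_032529 at 4 h from -0.33 to 0.23. The cause of these shifts was not tested. With the table's read group numbers entered as a block, 51 loci were called at 2 h, 1072 at 4 h and 30 among the polysomal 2-fold loci (31 without it). Same-numbered total libraries had correlations of their deviations from -0.018 to 0.305, over 0.1 in 1 of 9 pairs, so the numbers were not taken as pairing. No polysomal library at 0 h or 2 h could be left out.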
